A study of Mus musculus with 8 samples.

Results

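The genes described here encode the first 2 steps of branched-chain amino acid breakdown and their regulators: the transaminases Bcat1 and Bcat2, the branched-chain ketoacid dehydrogenase subunits Bckdha, Bckdhb, Dbt and Dld, the kinase Bckdk and the phosphatase Ppm1k. They were chosen by gene name from the known pathway, after an earlier analysis of these data had shown their fold changes, and are 8 of the 24033 genes in the table. RNA from mouse soleus, a postural muscle rich in slow oxidative fibres, was sequenced from animals aged 2 months, with 4 libraries in each of 2 genotypes. The control mice, MyoCre, carried the genotype Myogenin-Cre/+. The mice lacking the transcription factor KLF15 in skeletal muscle, K15-SKO, carried Myogenin-Cre/+;K15F/F, so both groups carried Cre and they differed in the floxed Klf15 alleles. The Myogenin promoter drives Cre in skeletal muscle cells, so other cells of the soleus kept Klf15, and which part of the gene was flanked by loxP sites was not given in the sources used here. Each library was labelled as a separate sample, and the p-values measure the spread between these 4 libraries a group.

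Leucine, isoleucine and valine are broken down largely outside the liver, and skeletal muscle is a main site of the first step. A branched-chain transaminase moves the amino group to 2-oxoglutarate, by BCAT2 in mitochondria and by BCAT1 in the cytosol. The ketoacid then meets a mitochondrial complex built on a core of E2 (DBT), to which the decarboxylase E1 (BCKDHA and BCKDHB) and the flavoprotein E3 (DLD) bind. BCKDK phosphorylates the E1 alpha subunit and switches the complex off, and PPM1K removes the phosphate and switches it on. E3 is shared with the pyruvate and 2-oxoglutarate dehydrogenase complexes and the glycine cleavage system. KLF15 is a zinc finger factor of the Krüppel-like family, whose members bind CACCC and GC boxes, and it is known as a regulator of amino acid breakdown in muscle.

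The promoters of 3 of the genes are shown because Bcat2 and Bckdhb were lower in every K15-SKO library while Bckdk, the kinase of the same complex, was level between the genotypes. The RefSeq table, on build GRCm38.p6, held a window from 250 bases before to 50 after the start for 7 of the 8 genes and not for Dbt. Bcat1, Bcat2 and Bckdhb had 2 windows each, of which the one nearest the annotated gene start is described. The 250 bases before the start are printed, with each CACCC, or its reverse complement GGGTG, in capitals. They lie on the plus strand at chr7:45569903-45570152 for Bcat2, chr9:83924887-83925136 for Bckdhb and chr7:127903823-127904072 for Bckdk.
Bcat2: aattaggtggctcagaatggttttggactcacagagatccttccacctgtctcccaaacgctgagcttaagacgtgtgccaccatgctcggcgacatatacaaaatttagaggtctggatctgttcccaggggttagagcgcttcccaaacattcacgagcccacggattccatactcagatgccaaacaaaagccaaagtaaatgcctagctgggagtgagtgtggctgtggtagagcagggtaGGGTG
Bckdhb: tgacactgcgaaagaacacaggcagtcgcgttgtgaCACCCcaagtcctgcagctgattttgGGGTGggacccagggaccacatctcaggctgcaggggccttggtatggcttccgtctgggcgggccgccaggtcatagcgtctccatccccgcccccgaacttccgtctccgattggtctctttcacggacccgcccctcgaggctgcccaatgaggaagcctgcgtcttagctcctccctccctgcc
Bckdk: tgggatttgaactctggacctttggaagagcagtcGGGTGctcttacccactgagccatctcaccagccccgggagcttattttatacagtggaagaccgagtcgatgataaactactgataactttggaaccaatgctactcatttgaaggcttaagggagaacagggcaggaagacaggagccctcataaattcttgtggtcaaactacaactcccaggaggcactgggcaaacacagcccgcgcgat
In the whole windows, searched on both strands, the Bcat2 match began at base -5 from the start, the Bckdhb matches at -214 and -188, the Bckdk match at -215 and a Bcat1 match at -160. Bckdha, Dld and Ppm1k had none of these letters in the window. The other window held 2 matches for Bcat1 and 0 for Bcat2 and Bckdhb. The same search found CACCC in 57.5% of all 32851 windows in the table. The GC box letters GGGCGG occurred 3 times at Bckdhb and 2 times at Ppm1k, at none of the other 5 genes in the described windows, and in 35.7% of all windows. No bases were shared between the 2 motifs. A match describes the sequence and shows no binding.

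Klf15 itself, read as FPKM (fragments scaled by transcript length and library depth), stood at 44.5, 49.8, 49.1 and 22.8 in MyoCre replicates 1 to 4 and at 15.7, 19.3, 16.7 and 13.1 in K15-SKO replicates 1 to 4. All 4 K15-SKO libraries were below the lowest MyoCre library, MyoCre replicate 4, which had less than the other 3. The K15-SKO mean was 38.9% of the MyoCre mean (log2 fold change -1.28 ± 0.24 SE, limma adjusted p = 0.0820 over all genes). An exact two-sided permutation test on this gene gave p = 0.0286, the smallest that 4 against 4 libraries allow. Without MyoCre replicate 4 the difference was -1.55 with a limma adjusted p of 0.0141. On leaving out any other single library the limma adjusted p was 0.0891 to 0.476, and rescaling the libraries gave 0.240 to 0.269.

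The FPKM values of a library summed to between 519884 and 652275. Total read counts were not analysed here. The most common low value of FPKM times transcript length put the depth at roughly 7.28M to 22.0M fragments, with MyoCre replicate 2 the deepest. That library was also the only male: 4 Y-linked genes summed to 64.8 FPKM in it and were listed at 0 in the other 7. K15-SKO replicate 3 stood apart by its median-of-ratios scale factor, 0.797 against 0.955 to 1.16. Its median correlation with the other libraries was the lowest, 0.942, with K15-SKO replicate 4 next at 0.949 and the others up to 0.968. Its genes with long transcripts were the lowest. The median deviation from the K15-SKO mean of each gene, which includes this library, was -0.12 (log2) for transcripts of up to 1576 bases. It was -0.34 for those of 5105 bases or more. In K15-SKO replicate 4 the trend ran the other way, from -0.11 for the shortest class to 0.10 for the longest. MyoCre replicate 2 and K15-SKO replicate 3 are named beside the results that lean on them. Markers of muscle fibres were abundant in sum, 10 genes reaching 11665 to 22595 FPKM in MyoCre and 12148 to 25051 in K15-SKO. Their median log2 fold change was -0.10. The highest, 2.23, was that of Myh4, at 26.2 ± 28.1 FPKM in MyoCre and 128.4 ± 115.8 in K15-SKO. Its groups overlapped (limma adjusted p = 0.959).

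Of the 8 genes, 7 passed the filter on low values, and 2 of these, Bckdhb and Dbt, were called lower in K15-SKO at an adjusted p under 0.05. None was called higher and 5 did not pass. Of all tested genes 0.0976% were called lower, 12 of 12297, and none higher (510 genes had an unadjusted p under 0.05). Every K15-SKO library was below every MyoCre library for 3 of the 7 genes, Bcat2, Bckdhb and Dbt, against 2.77% of all tested genes, 341 of 12297. Because the genes were put forward from this contrast, these counts describe them and are no test of them. The median log2 fold change of the 7 was -0.66, against -0.12 over all tested genes, of which 77.6% had a negative value. In FPKM, which is per transcript length, MyoCre levels ran from Dld down through Bckdha, Bckdk, Bckdhb, Bcat2, Dbt and Ppm1k to Bcat1. Bckdha and Bckdk overlapped in range, as did each neighbouring pair from Bckdhb to Ppm1k, while Dld, the Bckdha and Bckdk pair, that group of 4 and Bcat1 were apart. In K15-SKO the same 4 steps held, and Ppm1k stood above Bcat2 and Dbt with overlapping ranges.

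**Figure D1:**
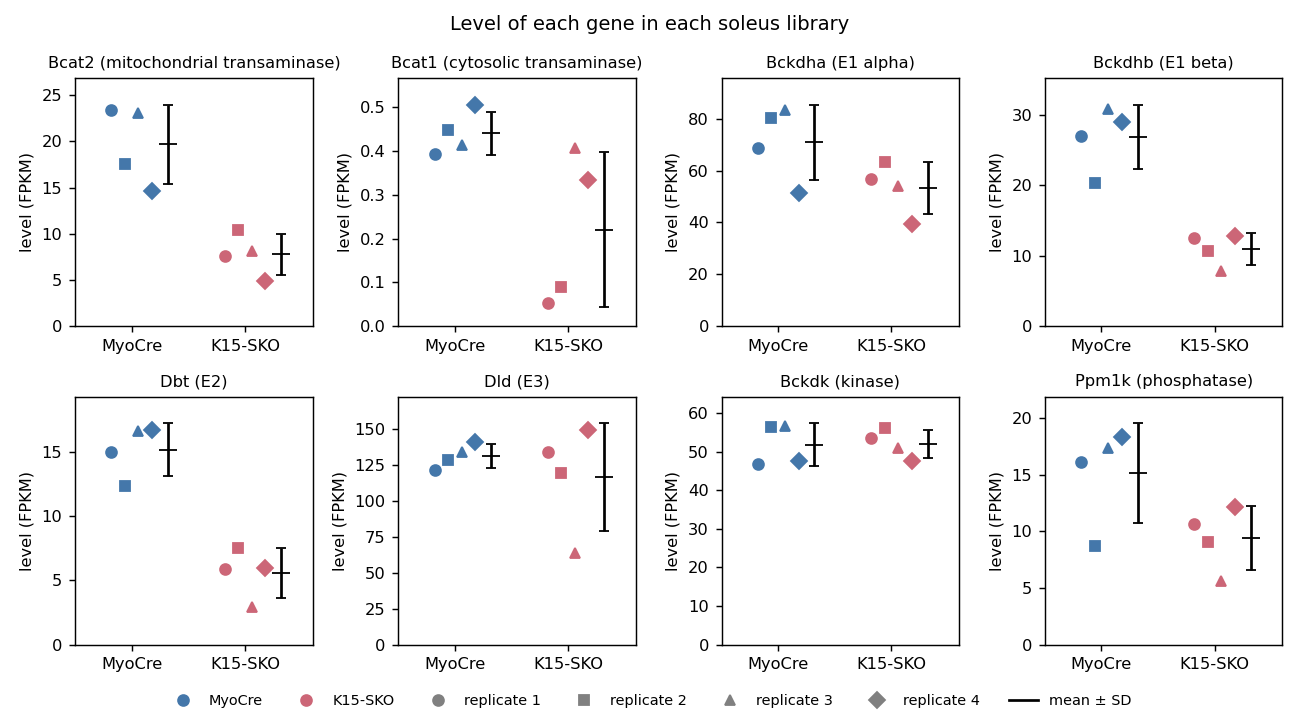
Level of each of the 8 genes (vertical axes, FPKM, each from 0) in the 4 MyoCre and 4 K15-SKO libraries, with a marker shape per replicate number and the mean ± SD beside each group. The groups are apart for Bcat2, Bckdhb and Dbt and overlap for the other 5, with K15-SKO replicate 3 the lowest library for Bckdhb, Dbt, Dld and Ppm1k.

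Bcat2, the mitochondrial transaminase and the main form in muscle, measured 23.4, 17.6, 23.1 and 14.6 FPKM in MyoCre replicates 1 to 4. In K15-SKO replicates 1 to 4 it measured 7.63, 10.4, 8.18 and 4.91 FPKM. The highest K15-SKO library stayed under the lowest MyoCre library, and replicate 4 was the lowest of each genotype. The means were 19.7 ± 4.28 and 7.77 ± 2.24 FPKM (SD, n = 4 each), so the K15-SKO mean was 39.5% of that in MyoCre. The log2 fold change of FPKM + 0.5 was -1.30 ± 0.23 (SE), with a 95% interval from -1.80 to -0.81 and a limma adjusted p of 0.0544, which did not pass. It passed without MyoCre replicate 4 (-1.43, limma adjusted p = 0.0487) and without K15-SKO replicate 2 (-1.45, limma adjusted p = 0.0380). Leaving out any other single library gave a limma adjusted p of 0.0563 to 0.454, the highest without MyoCre replicate 3. The 3 rescalings, by median-of-ratios, upper quartile and quantiles, gave 0.203 to 0.246. The gene lies at chr7:45570153-45589711 on the plus strand (mm10). An antisense gene, 0610005C13Rik, shares 622 exon bases with it and measured at most 0.0827 FPKM.

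Bcat1, the cytosolic transaminase, had the lowest mean level of the 8 genes in both genotypes. Its levels were 0.393, 0.448, 0.415 and 0.506 FPKM in MyoCre and 0.0527, 0.0885, 0.407 and 0.334 FPKM in K15-SKO. K15-SKO replicate 3 lay inside the MyoCre range and the other 3 K15-SKO libraries lay below it. The means were 0.440 ± 0.0490 and 0.221 ± 0.176 FPKM, both under the 1 FPKM needed for the test, so no fold change was fitted. At the estimated depths these levels correspond to 3.31 to 9.86 fragments per kilobase of transcript in MyoCre, 0.506 and 0.849 in K15-SKO replicates 1 and 2, and 3.56 and 2.43 in K15-SKO replicates 3 and 4. Bcat2 exceeded Bcat1 in all 8 libraries, by 28.9-fold to 59.4-fold in MyoCre and 14.7-fold to 144.8-fold in K15-SKO. The gene lies at chr6:144993835-145076184 on the minus strand.

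The 2 subunits of E1, the decarboxylase that uses thiamine diphosphate, did not give the same values. Bckdhb, which encodes the beta subunit, measured 27.1, 20.4, 30.9 and 29.1 FPKM in MyoCre and 12.5, 10.6, 7.80 and 12.8 FPKM in K15-SKO. The groups were apart, with MyoCre replicate 2 the lowest control and K15-SKO replicate 3 the lowest of all. Bckdhb fell from a mean of 26.8 ± 4.58 to 10.9 ± 2.29 FPKM, 40.7% of control. Its log2 fold change was -1.27 ± 0.21 (SE), 95% interval -1.71 to -0.83, with a limma adjusted p of 0.0306. The direction held under all 21 other ways of processing, from -1.39 to -1.08, but the call held under 10 of them. Rescaling the libraries ended it: limma adjusted p = 0.0552 with median-of-ratios, 0.0583 with upper-quartile and 0.0598 with quantile scaling. The limma adjusted p was also above 0.05 without MyoCre replicate 1 (0.165), 3 (0.316) or 4 (0.0835). The same held without K15-SKO replicate 1 (0.0516), 2 (0.0683) or 3 (-1.12, 0.0694). Bckdhb lies at chr9:83925145-84124240 on the plus strand.

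Bckdha, the alpha subunit and the target of the kinase, measured 68.7, 80.2, 83.3 and 51.4 FPKM in MyoCre. In K15-SKO it measured 56.6, 63.2, 54.0 and 39.3 FPKM. The groups overlapped: MyoCre replicate 4 lay below K15-SKO replicates 1 to 3. The means were 70.9 ± 14.5 and 53.3 ± 10.1 FPKM, a log2 fold change of -0.41 ± 0.21 (SE) with a 95% interval from -0.85 to 0.04 (limma adjusted p = 0.959). It was -0.27 without K15-SKO replicate 4, -0.55 without MyoCre replicate 4, and -0.27 to -0.26 after the 3 rescalings. The gene lies at chr7:25629946-25658981 on the minus strand. B3gnt8, on the opposite strand, shares 1171 exon bases with it, and whether the counting used strand was not given in the sources used here. B3gnt8 measured 0.334 to 1.04 FPKM.
The ratio of Bckdha to Bckdhb was 2.54, 3.93, 2.70 and 1.77 in MyoCre and 4.53, 5.95, 6.92 and 3.08 in K15-SKO. Its geometric mean was 1.86-fold higher in K15-SKO, but K15-SKO replicate 4 lay inside the MyoCre range. The log2 difference, 0.90, was 0.73 without K15-SKO replicate 3 and 1.09 without MyoCre replicate 2. This and the other ratios were described, with no test.

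Dbt, the E2 core that carries the lipoyl groups and transfers the acyl group to coenzyme A, had the most negative fold change of the 7 as processed here. With MyoCre replicate 4, K15-SKO replicate 3, or both MyoCre replicate 2 and K15-SKO replicate 3 left out, or with library weights, that of Bcat2 was more negative. It measured 14.98, 12.3, 16.6 and 16.7 FPKM in MyoCre and 5.87, 7.502, 2.92 and 5.96 FPKM in K15-SKO. The groups were apart, and K15-SKO replicate 3 was the lowest by a wide margin. Dbt fell from a mean of 15.1 ± 2.05 to 5.56 ± 1.91 FPKM, 36.7% of control. The log2 fold change was -1.42 ± 0.24 (SE), 95% interval -1.94 to -0.91, with a limma adjusted p of 0.0380. Over the 21 alternatives it ranged from -1.58 to -1.17, and the call held under 10. The limma adjusted p was 0.0666 with median-of-ratios, 0.0583 with upper-quartile and 0.0754 with quantile scaling. It was also above 0.05 without MyoCre replicate 1 (0.177), 3 (0.335) or 4 (0.125), and without K15-SKO replicate 1 (0.0768) or 3 (-1.17, 0.0609). With both MyoCre replicate 2 and K15-SKO replicate 3 left out, a choice made after the data were seen, Dbt kept a called difference of -1.26 (limma adjusted p = 0.0342) and Bckdhb one of -1.25 (limma adjusted p = 0.0342). Dbt lies at chr3:116513070-116549981 on the plus strand. A processed pseudogene, Gm4596, lies in one of its introns on the opposite strand, with no shared exon bases, and measured 50.3 to 98.8 FPKM. Another gene, Gm43651, overlaps Dbt on the same strand, also with no shared exon bases. It averaged 0.702 FPKM in MyoCre and 0.138 in K15-SKO.

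Dld, the E3 flavoprotein that reoxidises the lipoyl groups of E2, was the most abundant of the 8. It measured 121.8, 128.8, 134.4 and 141.2 FPKM in MyoCre and 134.1, 119.2, 63.5 and 149.5 FPKM in K15-SKO. The groups overlapped, and K15-SKO replicate 3 was far below the other 7 libraries. The means were 131.6 ± 8.26 and 116.6 ± 37.5 FPKM, with a log2 fold change of -0.24 ± 0.24 (SE) and a 95% interval from -0.75 to 0.27 (limma adjusted p = 0.959). Without K15-SKO replicate 3 the value was 0.03, and without K15-SKO replicate 4 it was -0.38. The 3 rescalings gave -0.10. Dld lies at chr12:31331277-31351453 on the minus strand.
Relative to the core, E3 transcript was higher. The ratio of Dld to Dbt was 8.13, 10.5, 8.10 and 8.46 in MyoCre and 22.8, 15.9, 21.7 and 25.1 in K15-SKO, apart and 2.41-fold higher. K15-SKO replicate 3, low for both genes, gave a ratio between those of the other K15-SKO libraries. The ratio of Dbt to Bckdha, E2 to E1 alpha, was 0.218, 0.153, 0.199 and 0.325 in MyoCre and 0.104, 0.119, 0.0541 and 0.152 in K15-SKO. These groups were apart by a narrow gap, between MyoCre replicate 2 and K15-SKO replicate 4. The log2 difference, -1.11, was -0.81 without K15-SKO replicate 3 and -1.27 without MyoCre replicate 2.

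Bckdk, the kinase that inactivates the complex, had nearly the same level in both genotypes. It measured 46.7, 56.4, 56.8 and 47.6 FPKM in MyoCre and 53.7, 56.1, 50.9 and 47.7 FPKM in K15-SKO. All K15-SKO values lay inside the MyoCre range. The means were 51.9 ± 5.48 and 52.1 ± 3.64 FPKM, a log2 fold change of 0.01 ± 0.17 (SE) with a limma adjusted p of 0.996. Its 95% interval, -0.35 to 0.37, bounds the difference these libraries allow. It was 0.15 after each of the 3 rescalings of the libraries. The sign turned on leaving out either of 2 MyoCre libraries, replicate 1 (-0.04) or 4 (-0.03). It also turned on leaving out either of 2 K15-SKO libraries, replicate 1 (-0.01) or 2 (-0.03). Bckdk lies at chr7:127904082-127910221 on the plus strand.
The ratio of Bckdk to Dbt was 3.12, 4.59, 3.42 and 2.85 in MyoCre and 9.15, 7.48, 17.4 and 7.997 in K15-SKO, apart and 2.87-fold higher. The log2 difference, 1.52, was 1.25 without K15-SKO replicate 3. Against its substrate subunit the kinase differed less: Bckdk to Bckdha was 0.681, 0.704, 0.682 and 0.927 in MyoCre and 0.948, 0.888, 0.943 and 1.21 in K15-SKO. MyoCre replicate 4 overlapped the K15-SKO range, and the geometric mean was 1.34-fold higher.

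Ppm1k, the mitochondrial phosphatase that reactivates the complex, measured 16.1, 8.66, 17.4 and 18.3 FPKM in MyoCre and 10.7, 9.08, 5.65 and 12.2 FPKM in K15-SKO. The overlap came through MyoCre replicate 2 alone, and K15-SKO replicate 3 was the lowest. The means were 15.1 ± 4.40 and 9.40 ± 2.80 FPKM, 62.1% of control, with a log2 fold change of -0.66 ± 0.27 (SE), 95% interval -1.23 to -0.08 and limma adjusted p = 0.959. Without MyoCre replicate 2 it was -0.89 with a limma adjusted p of 0.464, and over all alternatives it ranged from -0.89 to -0.44 and never passed. Ppm1k lies at chr6:57506502-57535468 on the minus strand.
The ratio of kinase to phosphatase, Bckdk to Ppm1k, was 2.90, 6.52, 3.27 and 2.60 in MyoCre and 5.04, 6.18, 9.004 and 3.91 in K15-SKO. Only MyoCre replicate 2 overlapped the K15-SKO libraries. The log2 difference, 0.69, was 0.98 without that library and 0.48 without K15-SKO replicate 3.

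**Figure D2:**
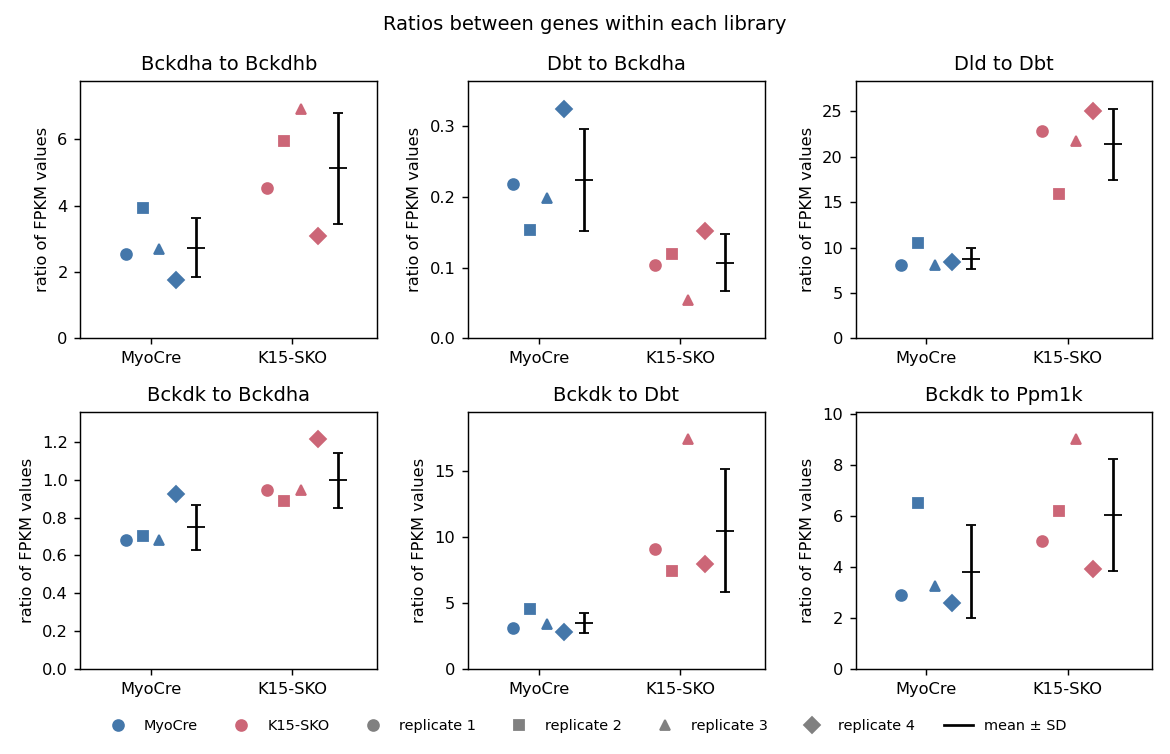
Ratio of FPKM values between 2 genes within each library (vertical axes from 0) for 6 pairs, with each replicate as a point and the mean ± SD beside it. Dld to Dbt and Bckdk to Dbt are apart and higher in K15-SKO, Dbt to Bckdha is apart and lower, and the other 3 pairs overlap.

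Within a genotype the genes are described as 2 sets, a grouping made after the values were seen and so given with no test. As deviations from the genotype mean on the log2 scale, Bcat2 and Bckdha were lowest in replicate 4 of both genotypes: -0.39 and -0.44 in MyoCre, -0.57 and -0.41 in K15-SKO. Klf15 was lowest in the same 2 libraries (-0.79 and -0.29). Bckdhb, Dbt and Ppm1k were instead lowest in MyoCre replicate 2, at -0.37, -0.28 and -0.72, and in K15-SKO replicate 3, at -0.44, -0.76 and -0.64. These are the deepest, male library and the library that stood apart, and their part in the pattern was not tested. Over the 8 libraries, Pearson correlations of these deviations were 0.49 to 0.85 among Bcat2, Bckdha and Bckdk, and 0.71 to 0.98 among Bckdhb, Dbt, Dld and Ppm1k. Between the 2 sets they were -0.46 to 0.09. Klf15 had correlations of 0.67 to 0.90 with the first set and -0.47 to -0.14 with the second. With MyoCre replicate 2 and K15-SKO replicate 3 left out, the 6 remaining libraries gave 0.68 to 0.94 within the first set, but -0.56 to 0.98 within the second and -0.92 to 0.55 between them. The second set as a whole thus rested on those 2 libraries. The first did not, but replicate 4 of each genotype, lowest for Bcat2, Bckdha and Klf15, was not left out in turn. Replicate 4 also had the lowest sum of the fibre markers in each genotype, 11665 FPKM in MyoCre and 12148 in K15-SKO. Its part in the first set was not tested. All points share library and depth, and after median-of-ratios scaling the range between the sets was -0.88 to -0.33.

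**Figure D3:**
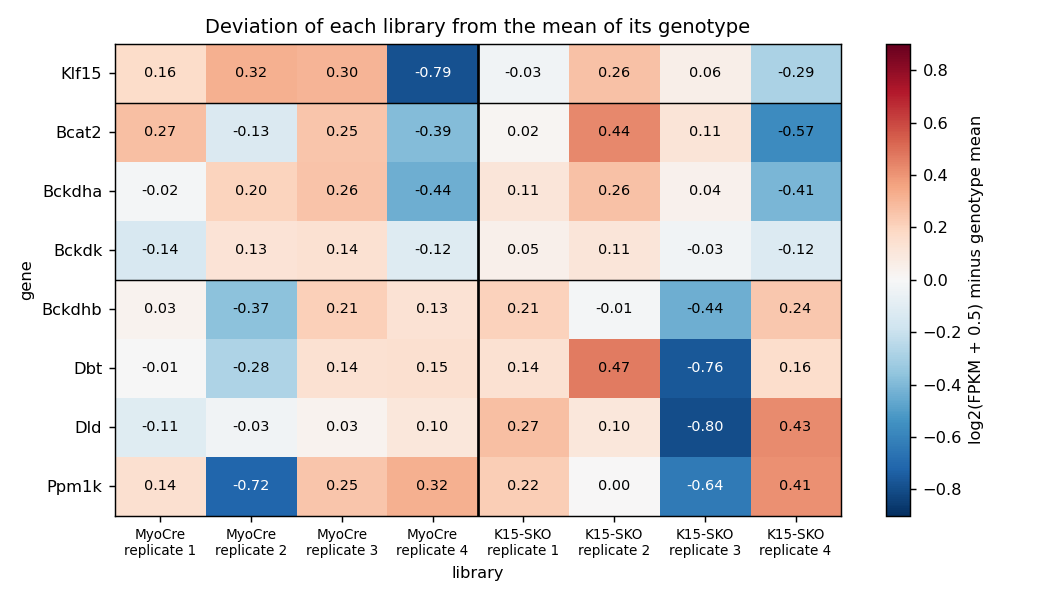
Deviation of each library from the mean of its own genotype, on the log2(FPKM + 0.5) scale, for Klf15 and 7 of the genes (rows) in the 8 libraries (columns), red above and blue below the mean. The lower 4 rows share their lowest K15-SKO value, from -0.80 to -0.44, in replicate 3, and Klf15, Bcat2 and Bckdha share their lowest values in replicate 4.

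Across all 8 libraries, with genotype included, the genes most like Bcat2 by Pearson correlation of log2(FPKM + 0.5) were Gstm1 (0.993), Aldh2 (0.979), Acot11 (0.977), Acot7 (0.968) and Aldh4a1 (0.968). Klf15 reached 0.942 with Bcat2, rank 18 among the tested genes. It reached 0.753 with Bckdhb (rank 640) and 0.760 with Dbt (rank 932). Bckdhb was most like Adhfe1 (0.989), Aldh6a1 (0.985), Hist2h2be (0.980), Mccc2 (0.978) and Snx30 (0.978). Dbt was most like Prnp (0.981), Antxr2 (0.978), Adhfe1 (0.974), Abcb1b (0.969) and Gcdh (0.966). Adhfe1 was thus among the 5 for both Bckdhb and Dbt, whose correlation with each other was 0.963, above that of Bcat2 with Bckdhb (0.803) or with Dbt (0.816).

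Downstream of the complex, 0 of 19 later breakdown enzymes passed, while 18 had a negative fold change and 9 were lower in every K15-SKO library than in any MyoCre library. Of all tested genes 77.6% had a negative value and 2.77% were lower in this way. The median log2 fold change of the 19 was -0.54, and -0.39 to -0.40 after rescaling by median-of-ratios, upper-quartile or quantiles, with 16 of 19 negative. Ivd, which oxidises isovaleryl-CoA in the leucine branch, averaged 61.4 ± 10.4 FPKM in MyoCre and 32.2 ± 3.04 in K15-SKO (-0.91, limma adjusted p = 0.0904). Aldh6a1, the methylmalonate semialdehyde dehydrogenase of valine breakdown, averaged 75.3 ± 15.7 and 37.3 ± 8.63 FPKM (-1.01, limma adjusted p = 0.161). Mccc2, a methylcrotonyl-CoA carboxylase subunit, had -0.72 (limma adjusted p = 0.219) and Echs1, the short-chain enoyl-CoA hydratase, -0.80 (limma adjusted p = 0.325). Auh, the methylglutaconyl-CoA hydratase, was the exception in sign, at 0.06. Of 6 amino acid carriers on the list, 4 were tested and none passed, with a median of -0.16 that rescaling brought to -0.03 to -0.02. Slc43a1, a carrier of large neutral amino acids, averaged 5.41 ± 2.88 and 2.41 ± 0.153 FPKM (-0.86, limma adjusted p = 0.959). Of 6 enzymes that take up or pass on the amino nitrogen none passed and 3 were apart and lower, against the same 2.77% of all genes, Gpt, the alanine transaminase, having the lowest value (-0.92, limma adjusted p = 0.293).

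The sister complexes share E3 and the lipoyl chemistry. Of 11 pyruvate dehydrogenase genes 1 passed, the phosphatase Pdp2, which fell from 7.18 ± 1.10 to 2.66 ± 0.377 FPKM (-1.28, limma adjusted p = 0.0123). Its limma adjusted p was 0.0552 to 0.0598 under the 3 rescalings, and above 0.05 without MyoCre replicate 1 (0.105) or 3 (0.160) and without K15-SKO replicate 1 (0.0516) or 3 (0.0609). The median of the 11 was -0.22, near that of all genes, and -0.08 after rescaling, with Dlat, the E2 of that complex, at -0.21 and Pdha1, its E1 alpha, at -0.12 before rescaling. Of 5 oxoglutarate and oxoadipate dehydrogenase genes none passed, with a median of -0.14 that was 0.00 to -0.01 after rescaling, without a fixed sign. Dhtkd1, the oxoadipate dehydrogenase E1 of lysine breakdown, averaged 1.79 ± 0.325 and 0.622 ± 0.142 FPKM and was apart (-1.03, limma adjusted p = 0.0820). Dlst, the E2 of those complexes, had -0.14. The tested lipoylation and thiamine supply genes, 6 of 7, had a median of -0.13, about that of all genes, and none passed. Gcsh, the only glycine cleavage gene of 3 to be tested, had -0.28. Whether Dbt differed more than the other E2 genes was not tested.

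**Figure D4:**
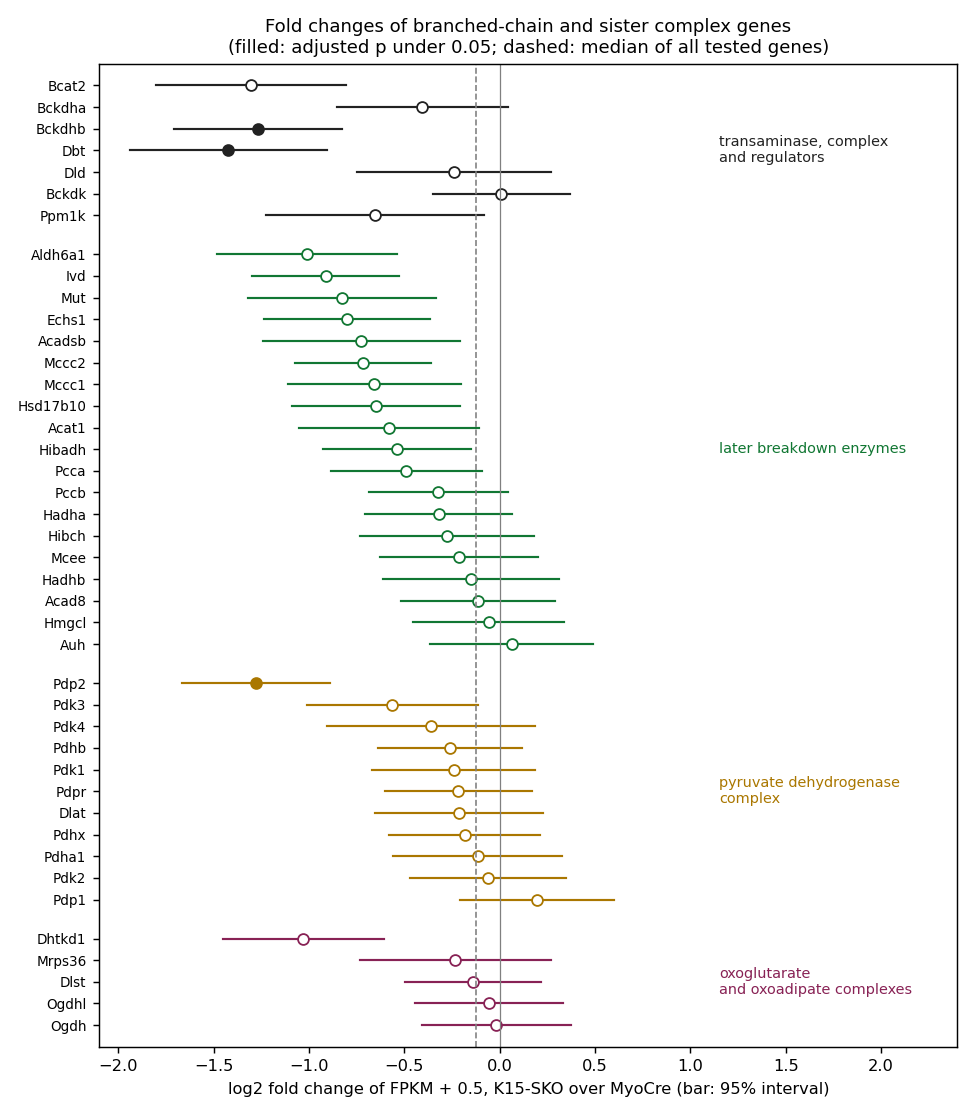
Log2 fold change of FPKM + 0.5, K15-SKO over MyoCre, with its 95% interval (horizontal axis) for 7 of the genes and 3 related lists (rows, colours by list). Filled points, Bckdhb, Dbt and Pdp2, passed the adjusted threshold, and the dashed line is the median of all tested genes, -0.12.

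In whole muscle, fewer cells of a type and less RNA per cell cannot be told apart. No marker list for another cell type held a called gene, and no marker was at 0 in all libraries. Adipocyte markers, from a tissue that also breaks down branched-chain amino acids, summed over 6 genes to 40.01 to 62.1 FPKM in MyoCre and 14.3 to 56.1 in K15-SKO. All 5 tested had negative fold changes, with a median of -0.58, also after rescaling (-0.48 to -0.46). The other summed levels overlapped too: endothelial 90.4 to 108.4 and 102.6 to 139.3, fibroblast 508.9 to 905.5 and 379.1 to 660.2, leukocyte 14.8 to 16.8 and 7.94 to 16.2, and Schwann cell 15.5 to 20.9 and 13.3 to 18.2 FPKM. By sign, 5 of 5 fibroblast markers (median -0.38) and 5 of 5 leukocyte markers (median -0.29) had negative fold changes, before and after rescaling. So did 3 of 3 tested Schwann cell markers (median -0.22). Before rescaling, 77.6% of all tested genes had a negative value. Of the 5 endothelial markers 1 was negative (median 0.18) and 0 were after rescaling (median 0.32), and Cdh5, an endothelial cadherin, was higher in every K15-SKO library (0.43, limma adjusted p = 0.959). Erythroid genes summed to 257.0 to 413.1 in MyoCre and 288.0 to 1814 in K15-SKO, the highest being K15-SKO replicate 3. The part of these cells in the results was not tested.

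**Figure D5:**
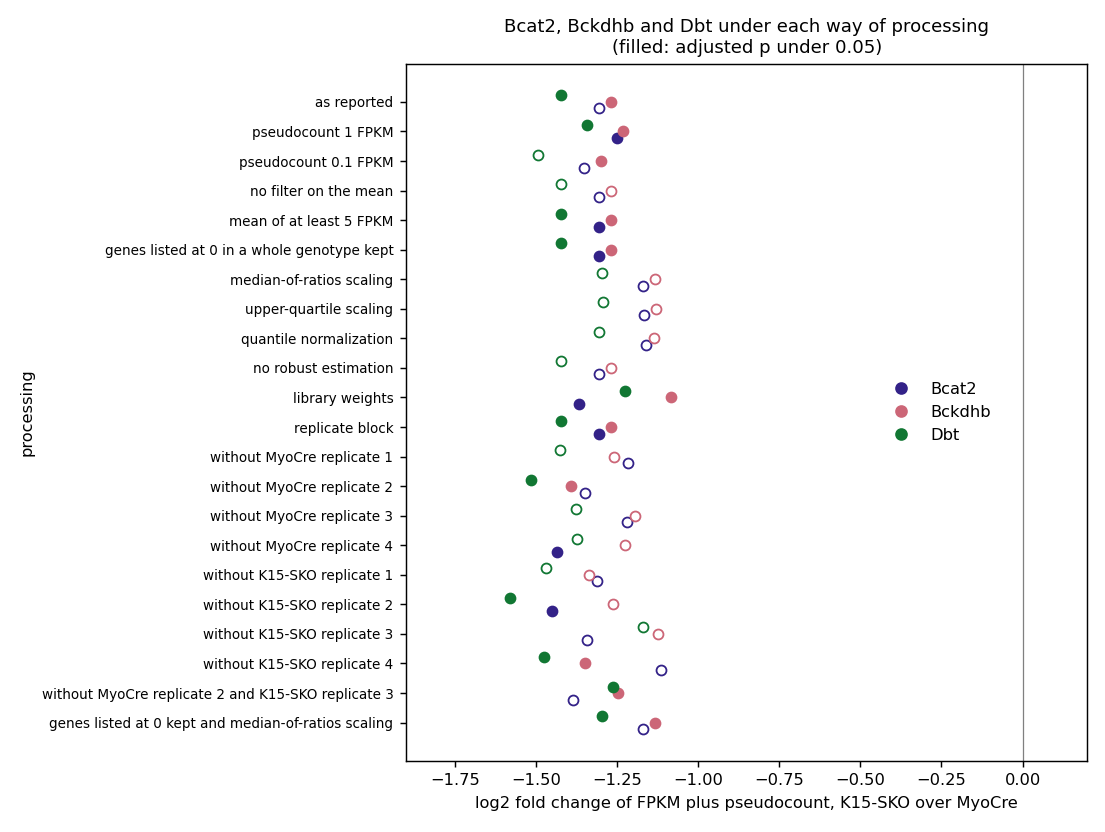
Log2 fold change, K15-SKO over MyoCre (horizontal axis), of Bcat2, Bckdhb and Dbt under the reported processing and 21 alternatives (rows); filled points have an adjusted p under 0.05. All values lie between -1.58 and -1.08, while the filling changes with the scaling and with the library left out.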

How the data were processed

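Libraries from soleus RNA were sequenced on an Illumina platform, per the labels' protocols. The deposited matrix holds 1 value per gene and library. Its unit is not named, and the values were read as the authors' FPKM, since Cufflinks and Cuffdiff, beside STAR and build mm10, are named without versions in the submitters' processing notes. No strand or counting setting is given in the sources used here. The members and gene lists were chosen with earlier results of these data known.

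Genes whose mean reached 1 FPKM with a value above 0 in at least 5 of 8 libraries were tested with limma 3.58.1 (R 4.3.3, trend and robust) on log2(FPKM + 0.5), which understates changes of low genes, two-sided, with Benjamini-Hochberg adjustment over 12297 genes and a threshold of 0.05. The second criterion removed 238 of 12535 genes; of these 12535, 102 had only zeros in MyoCre and 57 only zeros in K15-SKO, and a 0 in such a table can be a failed estimate. The minimum of 5 was kept when 1 library was left out, set after a minimum of 4 was seen to readmit such genes. Intervals are 95%. The procedure was tested on simulated data. Depth was estimated from genes with 1 annotated transcript longer than 1000 bases. The most common low value of FPKM times transcript length was taken to stand for 1 fragment. It was sought within bounds set after the data were seen, and its peak was unclear in K15-SKO replicate 3 and MyoCre replicate 4. Klf15 also had an exact permutation test (scipy 1.17.1). Named were all members, Klf15, of each list the genes that passed and at most the 4 others with the smallest p, and the 5 genes most correlated with Bcat2, Bckdhb and Dbt; Auh, Dlat, Pdha1 and Dlst were named after their values were seen. Positions come from GENCODE M21 (mm10, 99.43% of gene IDs matched) and promoters from RefSeq (GRCm38.p6). Alternatives changed the pseudocount, filters, scaling, weights, replicate block and libraries.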

Additional observations from a re-analysis of the deposited data

Results flagged for a closer look

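In groups of 4 libraries, the gap between the most extreme library and its neighbour was divided by the range and set against Dixon's 95% critical value, which chance passes in about 1 in 20 groups. Of 32 groups of values checked, over the genes and their ratios, 4 exceeded it. In MyoCre, the ratio of Dld to Dbt gave 0.849 through a high replicate 2 (10.5 against 8.10 to 8.46), and Bckdk to Ppm1k gave 0.8292, just above that value, through the same library (6.52 against 2.60 to 3.27). Also in MyoCre, Bckdk to Bckdha gave 0.905 through a high replicate 4 (0.927 against 0.681 to 0.704). In K15-SKO, Bckdk to Dbt gave 0.832 through a high replicate 3 (17.4 against 7.48 to 9.15).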

How the results depend on the processing

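Bcat2, Bckdhb, Dbt and Klf15 kept a negative fold change under each of the 21 alternatives, and Pdp2 under the 20 in which it was tested (its mean is under 5 FPKM). Of these, the joint removal of MyoCre replicate 2 and K15-SKO replicate 3, and the zeros kept with median-of-ratios scaling, were chosen after the data were seen. The number of genes called lower, 12 as reported, was more sensitive. It was 2 with no filter on the mean, 3 with median-of-ratios, 1 with upper-quartile and 3 with quantile scaling, 6 with no robust estimation and 98 with library weights (10 higher). With genes listed at 0 kept it was 23 (46 higher), or 14 (46 higher) with median-of-ratios scaling as well. Leaving out 1 library gave 0 to 15 lower and 0 to 1 higher. It was 0 without replicate 3 of MyoCre or of K15-SKO (333 and 541 genes at an unadjusted p under 0.05 in limma), and on leaving out replicate 1 it was 2 for MyoCre and 6 for K15-SKO. Median-of-ratios scaling moved the median of all genes from -0.12 to 0.00.

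Bckdhb lost its call with no filter on the mean (-1.27, limma adjusted p = 0.0727), under median-of-ratios (-1.13), upper-quartile (-1.13) and quantile scaling (-1.13), and with no robust estimation (-1.27, limma adjusted p = 0.0539). Dbt lost it with a pseudocount of 0.1 FPKM (-1.50, limma adjusted p = 0.0507), no filter (-1.42, limma adjusted p = 0.111), median-of-ratios (-1.30), upper-quartile (-1.29) and quantile scaling (-1.30), and no robust estimation (-1.42, limma adjusted p = 0.0755). Bcat2 gained a call with a pseudocount of 1 FPKM (-1.25, limma adjusted p = 0.0493), a mean of at least 5 FPKM (-1.30, limma adjusted p = 0.0355), zeros kept (-1.30, limma adjusted p = 0.0173) and library weights (-1.37). Pdp2 lost its call with no filter (-1.28, limma adjusted p = 0.0530) and under median-of-ratios (-1.15), upper-quartile (-1.15) and quantile scaling (-1.15). Klf15 gained one with zeros kept (-1.28, limma adjusted p = 0.0315) and library weights (-1.42). Dld changed sign with library weights (0.024), without K15-SKO replicate 3 (0.025) and without that library and MyoCre replicate 2 (0.016). Bckdk had -0.039 to 0.054 with 1 library left out and 0.061 with those 2 left out. On leaving out 1 library, Bcat2 ranged from -1.45 to -1.11, Bckdhb from -1.39 to -1.12, Dbt from -1.58 to -1.17, Dld from -0.38 to 0.025 Klf15 from -1.55 to -1.18 and Pdp2 from -1.37 to -1.20. The cause of these differences was not tested.

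Replicate numbers are shared between the genotypes. Same-numbered libraries had correlations of deviations of 0.19, 0.30, 0.08 and 0.44. By these, 6 of 8 libraries correlated best with their own number, a hint from the data and not the design. The 6 are the pairs of replicates 1, 2 and 4, each seen from both sides, and so are not independent. A replicate block on the number gave 29 genes called lower, with Bcat2 at -1.30 and Klf15 at -1.28 passing (limma adjusted p = 0.0230 for each).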
